A study of Danio rerio with 6 samples.

Results

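Cytosolic ribosomal proteins are the protein part of the ribosome, the particle that reads mRNA and joins amino acids into protein. Each ribosome holds a small subunit, which binds the mRNA and checks the pairing of tRNAs, and a large subunit, which forms the peptide bond. Most of these proteins are present in equal numbers in a ribosome. In vertebrates the mRNAs of ribosomal proteins start with a run of pyrimidines through which growth signals set their translation. The genes are among the most strongly expressed of growing larvae, and loss of single members in zebrafish and in people is known to harm blood formation and development.

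The members were chosen by name. A gene was taken where its symbol begins with rpl or rps and a digit, or is rplp0 to rplp2 with any ending, or rpsa, where its biotype is protein coding, and where its mean over the 6 libraries is at least 5 normalized counts; the S6 kinases (rps6k names) were left out. This gave 82 genes of the 31901 in the deposited table, and of the 21302 that have a mean of at least 5. They carry 81 distinct symbols, since rpl37 stands for 2 gene identifiers. Of the 82, 46 encode proteins of the large subunit or their close relatives, 34 encode proteins of the small subunit, and 2 encode neither for certain. The rule itself uses no measured difference, but the members were chosen with earlier results of these data known.

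The libraries were made from polyA RNA of 3 pools of dscaml1 homozygous mutant larvae and 3 pools of wild-type (WT) larvae of 3.5 to 4 days post fertilization (dpf), with 6 to 11 larvae in each pool. All pools came from crosses of heterozygous parents, so mutants and WT were siblings, and no treatment was given to either. The mutants carry a frameshift allele of dscaml1, a gene for a neuronal adhesion molecule, in every cell of the animal. The labels call the tissue whole animal while the methods of the study describe the anterior part of each larva, so that which of them gave the RNA is not known here.

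The values are read counts on a scale made comparable by the authors with a size factor for each library, and are called normalized counts here. The libraries held 18725190 to 20476688 reads in mutants and 21863982 to 23516860 reads in WT. dscaml1 itself was at 363 ± 32.8 normalized counts in mutants and 368 ± 31.4 in WT (SD, n = 3 pools each), and since the allele shifts the reading frame, this level checks no label. Replicate 2 of both genotypes stood apart from the other 4 libraries in its tissue markers. The summed counts of 6 exocrine pancreas markers were 140 in mutant replicate 2 and 292 in WT replicate 2, against 56817 to 127909 in the other 4 libraries. Of the 60 markers in 10 lists of tissues, stmn1b of the neuron list and sox2 of the neural progenitor list were at 0 in every library, and 1 photoreceptor marker was not matched. All lists were otherwise detected, and in such bulk samples fewer cells of a type and less RNA per cell cannot be told apart.

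Ribosomal protein mRNAs held a large share of the counts in both genotypes. The 82 genes together took 8.89%, 9.75% and 9.24% of all normalized counts in mutant replicates 1, 2 and 3, against 8.62%, 9.06% and 8.54% in WT. The share was 9.30% ± 0.43 in mutants and 8.74% ± 0.28 in WT (SD, n = 3 pools each), a difference of 0.556 percentage points. It was 0.327 without mutant replicate 2 and 0.758 without mutant replicate 1. The groups overlapped, because WT replicate 2 lay above mutant replicate 1. Within pairs of equal replicate number the mutant pool was higher by 0.273, 0.691 and 0.704 percentage points. No source used here states that equal numbers belong together. The share is relative to all other mRNAs, and both replicate 2 libraries, which lacked most pancreas mRNA, had the highest share of their genotype. Small-subunit genes took 4.04% ± 0.21 in mutants and 3.77% ± 0.13 in WT, and large-subunit genes 5.25% ± 0.22 in mutants and 4.97% ± 0.16 in WT (SD, n = 3 each). The ratio of large-subunit to small-subunit counts was 1.30 ± 0.016 in mutants and 1.32 ± 0.0078 in WT (SD, n = 3 each), and by library it was 1.307, 1.282 and 1.311 in mutants against 1.328, 1.314 and 1.315 in WT. All mutant pools thus had a slightly lower ratio than all WT pools, with mutant replicate 3 close to WT replicate 2. Summed counts weigh genes by their level, so the ratio does not describe a subunit as a whole. rps2, the most counted small-subunit gene, had means of 69253 in mutants and 58745 in WT, and its part in the ratio was not tested. No ratio was made without rps2, so the order of the pools is stated only for sums that include it. The median log2 fold change was 0.04 for large-subunit and 0.05 for small-subunit genes. This order was picked out after the values were seen and has no test.

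**Figure D1:**
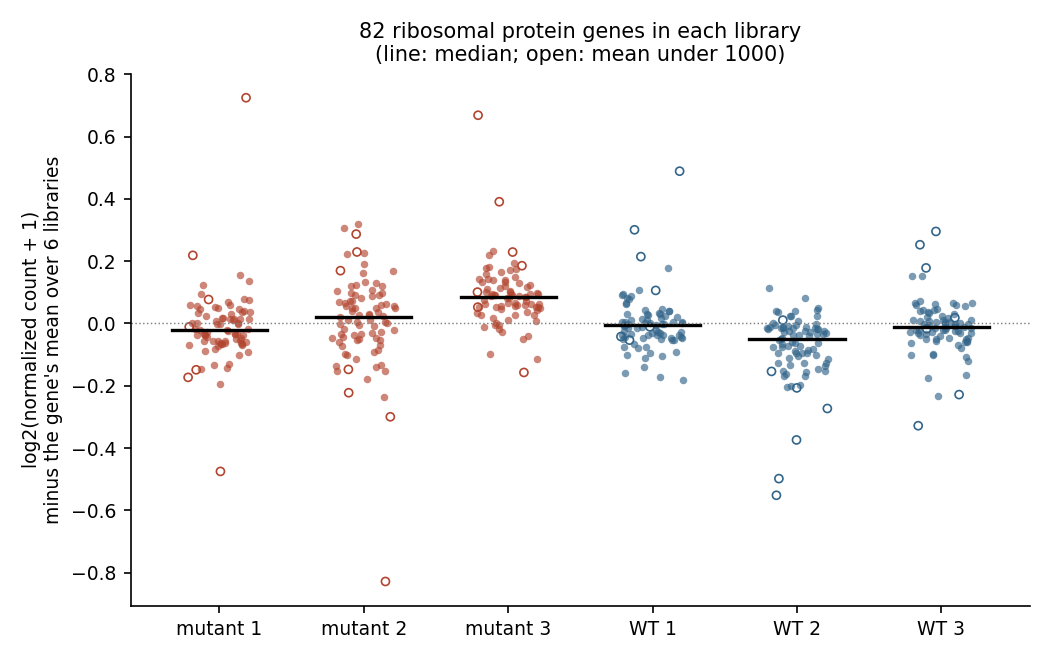
Each point is 1 of the 82 ribosomal protein genes in 1 library, plotted as log2(normalized count + 1) minus that gene's mean over the 6 libraries; black lines are medians and open points are the 7 genes with a mean under 1000. Medians lie between −0.05 in WT 2 and 0.09 in mutant 3, and the open points scatter most.

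No ribosomal protein gene passed the test between genotypes. The test was that of limma, fitted to log2(normalized count + 1) with genotype and a term for replicate 2, and a gene was called at a Benjamini-Hochberg adjusted p under 0.05 over all 21302 genes. By this rule 0 of the 82 members were called, where 0.0986% of all genes were (0.0235% higher and 0.0751% lower in mutants). At an unadjusted p under 0.05 there was 1 member, rpl36, against 14% of all genes. limma draws the variance of each gene toward that of genes of similar level, most of which varied more than the members. This widens the standard errors of members with a small spread, so these counts alone do not show that the members changed less. The adjusted p of the members ran from 0.279 to 0.997 with limma. The quasi-likelihood test of edgeR and the likelihood ratio test of DESeq2, both on the recovered reads, also called 0 members. Of the 21302 genes edgeR called 18 and DESeq2 592. Where so few genes are called in all, as with limma and edgeR, a count of 0 says little of the members.

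The log2 fold changes were small and more often above than below 0. They ran from −0.15 for rplp2l to 0.26 for rpl36, with a median of 0.05, or 3.62%, while the median over all genes was 0.01. The coefficient was above 0 in 62 of the 82 members, against 50.7% of all genes. It was above 0 in 33 of 46 large-subunit genes (median 0.04) and in 28 of 34 small-subunit genes (median 0.05). After TMM scaling the median over all genes was 0.01, and after scaling to equal totals it was 0.02. The member median stayed above 0 with both, at 0.06 and 0.07. It was not spread evenly over the pools. Between libraries of equal replicate number the median difference was −0.00 for replicate 1, with 41 members above 0, then 0.07 for replicate 2 (59 members) and 0.10 for replicate 3 (68 members). Members share their library, so these counts are not counts of separate events.

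For well counted genes the intervals set a bound. Of the 82 members, 79 had a 95% interval of the log2 fold change inside −0.5 to 0.5, among them all 75 with a mean of at least 1000, whose intervals together reached from −0.41 to 0.48. The exceptions, rpl9 and rpl26 among them, had few counts. The intervals rest on the spread between these pools, which limma draws toward the spread of other genes of similar level. This prior had a median of 4.65 degrees of freedom, beside 3 residual ones. For example, rpl32 had an SD of 0.021 over the 6 libraries but a standard error of 0.086. P-values above the threshold do not show that the levels were equal.

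**Figure D2:**
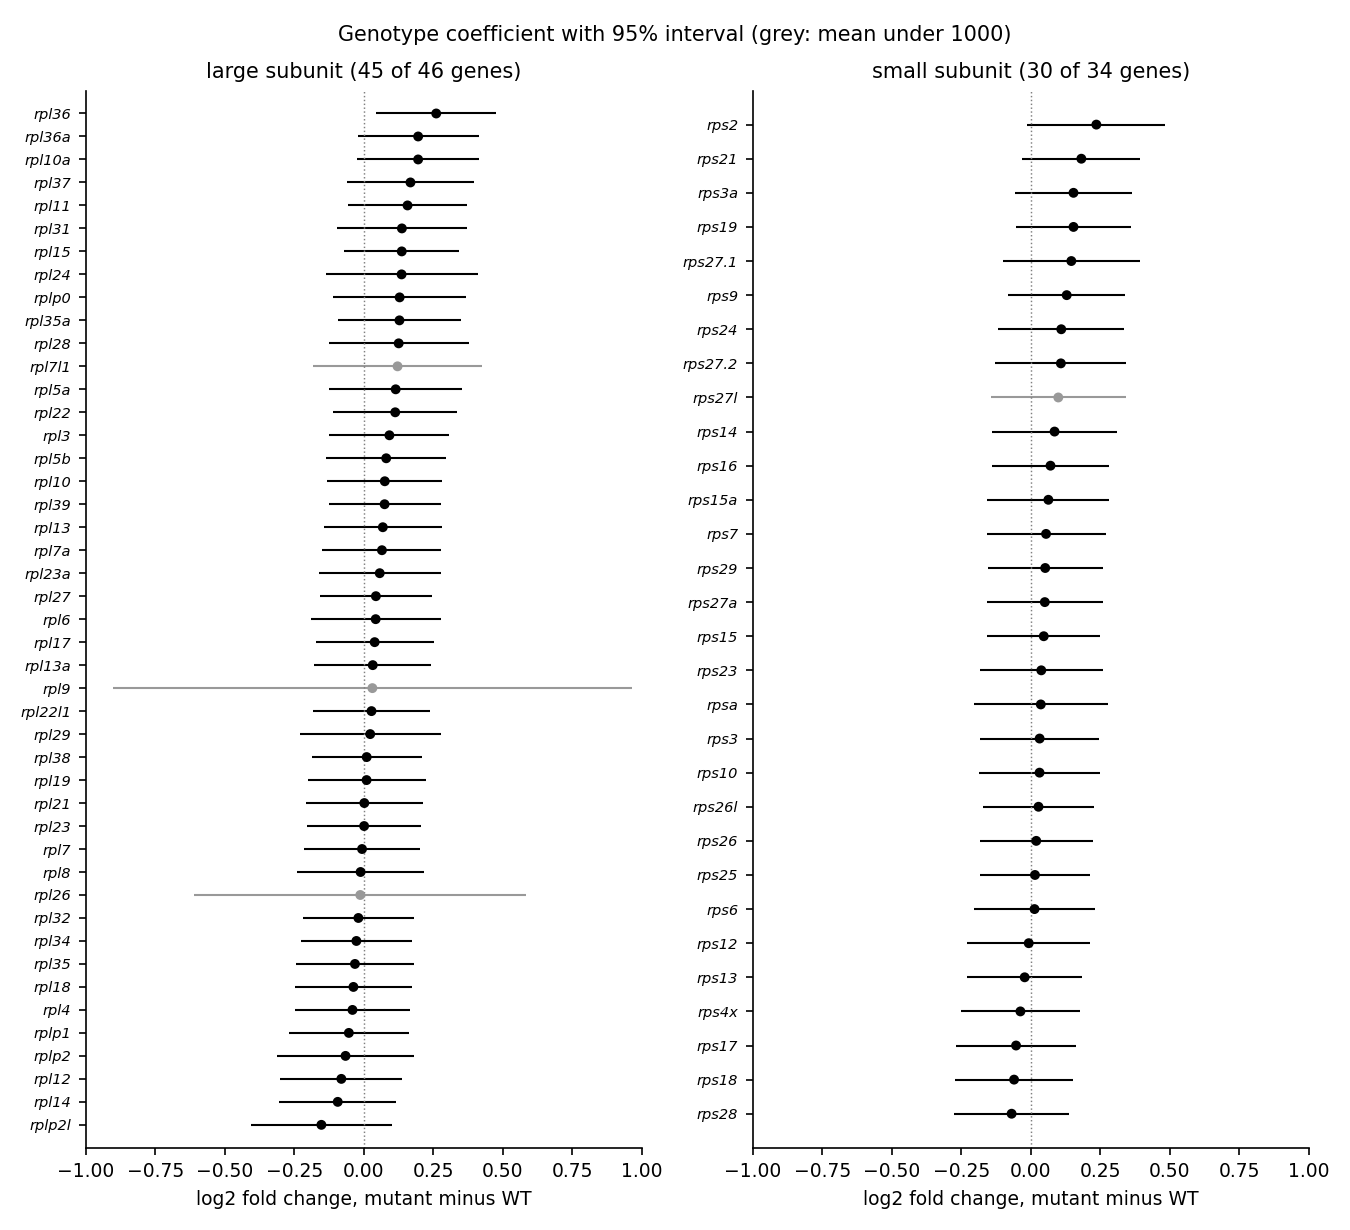
Log2 fold change (mutant minus WT, from limma) of 45 of the 46 large-subunit and 30 of the 34 small-subunit genes, with its 95% interval; grey marks genes with a mean under 1000 normalized counts. Points sit between −0.15 and 0.26, and the interval of rpl36 is the only one that leaves out 0.

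In 17 of the 82 members (20.7%) all 3 mutant libraries lay above all 3 WT libraries, where 5.07% of all genes did so, and in 0 members they all lay below, where 4.55% of all genes did. They included rpl7a, rpl10, rpl11, rpl27, rpl35a, rpl36, rpl36a and rpl39 of the large subunit, and rps2, rps3a, rps9, rps15, rps19 and rps21 of the small subunit. The log2 fold changes of the 17 ran from 0.04 to 0.26 and their adjusted p from 0.279 to 0.866 with limma. Those among them that the naming rule does not take were picked out for this order. The count depended on single pools. It was 37 without mutant replicate 1 (8.85% of all genes), 28 without both replicate 2 libraries (22.8% of all genes), and 12 with 1 below after scaling to equal totals (5.37% and 3.69% of all genes). Without mutant replicate 3, 17 members had all mutant libraries above and 9 had all below, as 8.04% and 7.68% of all genes did. With the authors' scaling, mutant replicate 3 was the highest of the 6 libraries in 45 members and WT replicate 2 the lowest in 30. Likewise 72 of the 82 members were above their own mean in mutant replicate 3 against 13 in WT replicate 2. This order depended on the scaling. With equal totals the median deviation of the members was highest in mutant replicate 2 (0.10) and lowest in WT replicate 3 (−0.06). It was then 0.03 in mutant replicate 3 and 0.02 in WT replicate 2.

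Among markers of tissues, some liver genes were called between genotypes. The 6 liver markers summed to 78997 to 133975 normalized counts in mutants and 108323 to 147745 in WT, with 0 of them at 0 and 3 of 6 called lower. No gene of the whole table was called with no batch term, or without WT replicate 2, WT replicate 3, mutant replicate 2 or mutant replicate 3, so these calls end there. The 6 markers of proliferating cells summed to 5296 to 11133 in mutants and 8055 to 12550 in WT, with 0 called. Their part in the ribosomal protein values was not tested.

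rpl36 had the lowest p of the members. This gene (ENSDARG00000100588, chromosome 22 of GRCz11 from 3153876 to 3159456) encodes a small protein of the large subunit. It had 12403, 12458 and 12558 normalized counts in mutant replicates 1, 2 and 3, against 11218, 9898 and 10168 in WT. The mutant pools lay close to each other and above every WT pool. The means were 12473 ± 78.8 in mutants and 10428 ± 697 in WT (SD, n = 3 pools each). The log2 fold change was 0.26 (SE, the standard error, 0.09, 95% interval 0.05 to 0.48), with an unadjusted p of 0.0238 and an adjusted p of 0.279 from limma. Over all alternatives its adjusted p ran from 0.230, with a stricter filter, to 1.0, with no batch term.

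The next genes by p were rps2, rpl36a, rpl10a and rps21. rps2, whose protein lines the channel by which mRNA enters the small subunit, (ENSDARG00000077291, chromosome 3 from 18398876 to 18403179) had 64282, 68631 and 74846 normalized counts in mutants against 61513, 55383 and 59339 in WT. Its pools did not overlap, and its log2 fold change was 0.24 ± 0.11 (SE), with a limma adjusted p of 0.377. rpl36a encodes a protein near the exit site for tRNAs. It had 12338, 12468 and 13732 normalized counts in mutants against 11390.5, 10456 and 11813 in WT, again with no overlap, and with a log2 fold change of 0.20 ± 0.09 (SE) and a limma adjusted p of 0.403. rpl10a, of the flexible stalk beside the exit site, had 27659, 24945 and 27215 in mutants against 22565, 22179.9 and 24992 in WT. WT replicate 3 reached just above mutant replicate 2 here, and the log2 fold change was also 0.20. rps21, of the small subunit, had 8595, 9639 and 8190.2 normalized counts in mutants against 7274, 8095 and 7894 in WT, a log2 fold change of 0.18 with an adjusted p of 0.424 from limma.

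**Figure D3:**
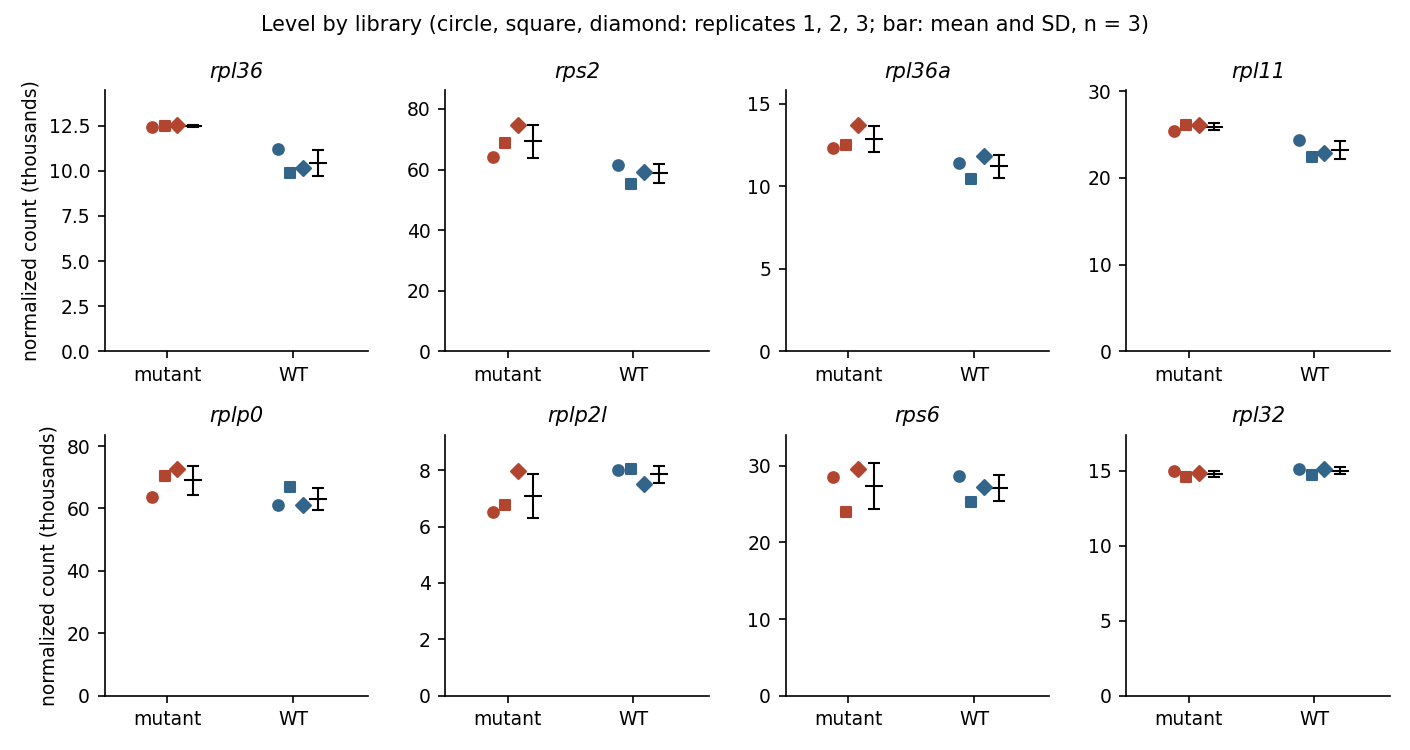
Normalized counts for 8 ribosomal protein genes, with circles, squares and diamonds for replicates 1, 2 and 3 and bars for the mean and SD of 3 pools. rpl36, rps2, rpl36a and rpl11 show mutant pools above WT pools, whereas the pools of rplp0, rplp2l, rps6 and rpl32 overlap.

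In the stalk of the large subunit, which recruits elongation factors, rplp0 had a coefficient above 0 and the other genes had coefficients below 0. rplp0, which anchors the stalk, had 63737, 70475 and 72716 normalized counts in mutants against 60974, 66991 and 61173 in WT. WT replicate 2 stood above mutant replicate 1, and the log2 fold change was 0.13 (95% interval −0.11 to 0.37). The acidic stalk proteins bind to that of rplp0 in pairs. rplp1 had 19376 ± 1398 normalized counts in mutants and 20084 ± 531 in WT, and rplp2 had 3937 ± 573 in mutants and 4093 ± 95 in WT (SD, n = 3 each). Their log2 fold changes were −0.05 and −0.07. rplp2l, a gene named as a relative of rplp2, had the lowest coefficient of all members. The gene (ENSDARG00000011201, chromosome 7 from 12959846 to 12968701) had 6505, 6783 and 7982 normalized counts in mutants against 8014, 8053 and 7496 in WT. Mutant replicates 1 and 2 were below every WT pool and mutant replicate 3 was within their range, for a log2 fold change of −0.15 (95% interval −0.41 to 0.10, adjusted p = 0.580 from limma). rpl12, whose protein sits with that of rplp0 at the foot of the stalk, had 15079.7 ± 1090.3 in mutants and 15964 ± 1444 in WT, a log2 fold change of −0.08. rpl14 of the large subunit (−0.09) and rps28 of the small subunit (−0.07) complete the 5 lowest.

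rpl5a, rpl5b and rpl11 encode the proteins that bind the smallest ribosomal RNA of the large subunit, and in mammals the free complex also binds Mdm2 and thereby protects p53. rpl11 (ENSDARG00000043509, chromosome 19 from 43780970 to 43786940) had 25418, 26096 and 26158 normalized counts in mutants against 24389, 22439.9 and 22861 in WT. All mutant pools were above the WT pools, by a log2 value of 0.16 (SE 0.09, limma adjusted p = 0.496). rpl5a had 17681 ± 1440.1 in mutants and 16304 ± 697 in WT, and rpl5b had 15564 ± 1048 in mutants and 14718 ± 964 in WT (SD, n = 3 each). Pools overlapped for both, with log2 fold changes of 0.11 and 0.08. rpl3, next to the site where the peptide bond forms, had 38041 ± 2572 in mutants and 35671 ± 1934 in WT, a log2 fold change of 0.09. rpl10, which joins late and is needed for the subunits to meet, had 15175 ± 653 in mutants and 14394 ± 108 in WT, a log2 fold change of 0.08. rpl39, of the tunnel by which the new chain leaves, had 11060.3 ± 234 in mutants and 10501 ± 49.6 in WT, a log2 fold change of 0.07. In rpl10 and rpl39 no pools overlapped, although the difference was only a few percent.

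Of the small-subunit genes, rps19 has the best known part in disease, since its loss in people causes a failure of red cell formation. It lies on chromosome 16 from 24188114 to 24195361 (ENSDARG00000030602) and had 12309, 12426 and 12886 normalized counts in mutants against 11656, 10692 and 11488 in WT. The groups did not overlap, and the log2 fold change was 0.15 ± 0.09 (SE), with a limma adjusted p of 0.488. rps14, whose single-copy loss in human bone marrow likewise lowers red cell output, had 15748 ± 647 in mutants and 14856 ± 1029.7 in WT, with overlapping pools and a log2 fold change of 0.09. rps6, the substrate of S6 kinase, had 28599.7, 24019 and 29614 in mutants against 28712, 25275 and 27253 in WT. Its lowest pool in each genotype was replicate 2, and the log2 fold change was 0.01. rps3, at the mRNA entry, had 17228 ± 1031 in mutants and 16832 ± 17.3 in WT, and its WT pools were nearly equal. rpsa, also known as a laminin receptor, had 39183 ± 3745 in mutants and 38128 ± 1945 in WT, and rps27a, made as a fusion with ubiquitin, had 15868 ± 478 in mutants and 15319.6 ± 314 in WT (SD, n = 3 each). Their log2 fold changes were 0.03, 0.04 and 0.05 for rps3, rpsa and rps27a.

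The members varied little over the libraries. The SD of log2(normalized count + 1) over all 6 libraries had a median of 0.089 among members, 0.319 among all genes and 0.259 among genes with a mean of at least 1000. It was under 0.1 in 51 of the 82 members (62.2%) and in 3.17% of all genes. Of the 2156 other genes with a mean of at least 1000, 95.6% had an SD above the member median. The median level was 12260 among members and 1711 among all genes with a mean of at least 1000. Among the related gene lists described below, 4 ribosomal proteins with other names had a median SD of 0.094. It was 0.119 in 16 initiation factor 3 genes and from 0.165 to 0.437 in the rest of those lists. The highest library exceeded the lowest by less than 1.25-fold in 64 members and by less than 1.5-fold in 78, with a median of 1.17-fold. rpl32, chosen here after its values were seen, was one of the flattest, with 14954, 14565 and 14843 normalized counts in mutants against 15114, 14733 and 15122 in WT. These values describe the libraries as scaled by the authors, and abundant genes have less counting error than the average gene.

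**Figure D4:**
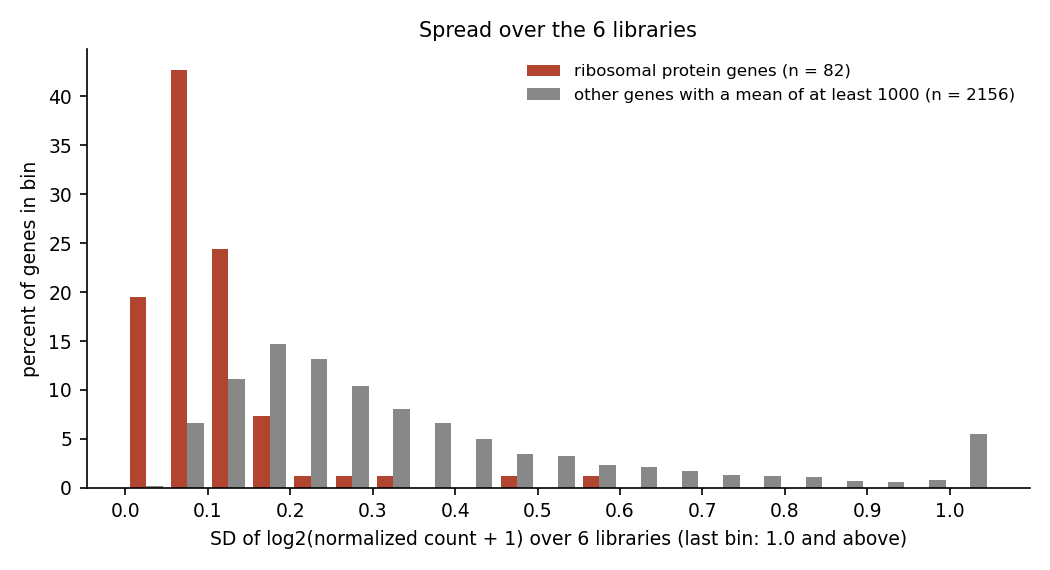
Percent of genes in each bin of the SD of log2(normalized count + 1) over the 6 libraries, for the 82 ribosomal protein genes and for 2156 other genes with a mean of at least 1000. Most ribosomal protein genes fall below 0.1 to 0.15, and the other genes spread out to 1.0 and above.

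Most members also differed little in replicate 2, where some tissue markers differed by far more. The replicate 2 coefficient (replicate 2 of both genotypes minus the other 4 libraries) had a median of −0.03 over the members, with 25 above 0. It ran from −0.99 to 0.27 over all 82, the lowest value being that of a member with few counts, and from −0.24 to 0.27 in the 75 members with a mean of at least 1000. The median coefficient of the 6 exocrine pancreas markers was −9.06, that of the 6 red blood cell markers 3.54 and that of the 6 skeletal muscle markers −1.23. The direction of so small a shift depended on the scaling: with equal totals, which moved the median of all genes to 0.11, the member median was 0.09 and 66 members were above 0. Both replicate 2 libraries were above the other 4 in 3 members (3.66%) and below them in 17 (20.7%), against 24.6% and 26.1% of all genes. Among the named members, those that differed most were the second rpl37 gene (−0.58), rps27l (−0.43), rpl9 (−0.27) and rps26l (−0.24) on the low side. On the high side they were rps27.1 (0.27), the main rpl37 gene (0.22), rps19bp1 (0.18), rps21 (0.15) and rps29 (0.13). These splits were chosen from the data, so no test is given.

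Zebrafish keep pairs of genes for several ribosomal proteins, and the share of each copy was compared within the pairs. The groups of shares did not separate by genotype in any of the 7 comparisons shown. For the rps27 genes, rps27.1 took 54.9%, 58.7% and 48.7% of the summed counts of rps27.1, rps27.2 and rps27l in mutants, against 53.3%, 56.8% and 50.3% in WT. The highest share of each genotype was in replicate 2. rps27l, whose human counterpart is a target of p53, took 2.75%, 1.66% and 2.68% in mutants against 2.54%, 1.98% and 2.59% in WT, with the lowest share in replicate 2. rps26l took 60.5%, 55.1% and 60.1% of the counts of rps26 and rps26l in mutants against 59.7%, 55.0% and 60.5% in WT, again lowest in replicate 2. Thus rps26l had more counts than rps26 in all libraries, and replicate 2 stood apart in the same direction in both genotypes.

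In the other pairs the genotypes overlapped as well. rpl5a took 51.6%, 56.1% and 51.7% of the rpl5a and rpl5b counts in mutants against 51.5%, 53.2% and 53.0% in WT. rplp2l took 62.6%, 66.7% and 63.8% of the rplp2 and rplp2l counts in mutants against 66.2%, 66.8% and 64.2% in WT. rpl22l1, the relative that takes the place of rpl22 in some mammalian ribosomes, took 23.2%, 21.3% and 21.1% in mutants against 22.9%, 22.6% and 23.1% in WT. Mutant replicates 2 and 3 lay below all WT pools and mutant replicate 1 above them. rpl7l1, whose human counterpart acts in ribosome assembly, took 3.20%, 3.95% and 3.91% of the rpl7 and rpl7l1 counts in mutants against 3.48%, 3.25% and 3.39% in WT. Shares of counts do not correct for gene length. The widest exact binomial (Clopper-Pearson) 95% interval, which covers counting error only, reached 0.963 percentage points to either side. How reads that fit both copies were counted is not stated in any source used here, so these shares are uncertain where the copies are near-identical.

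**Figure D5:**
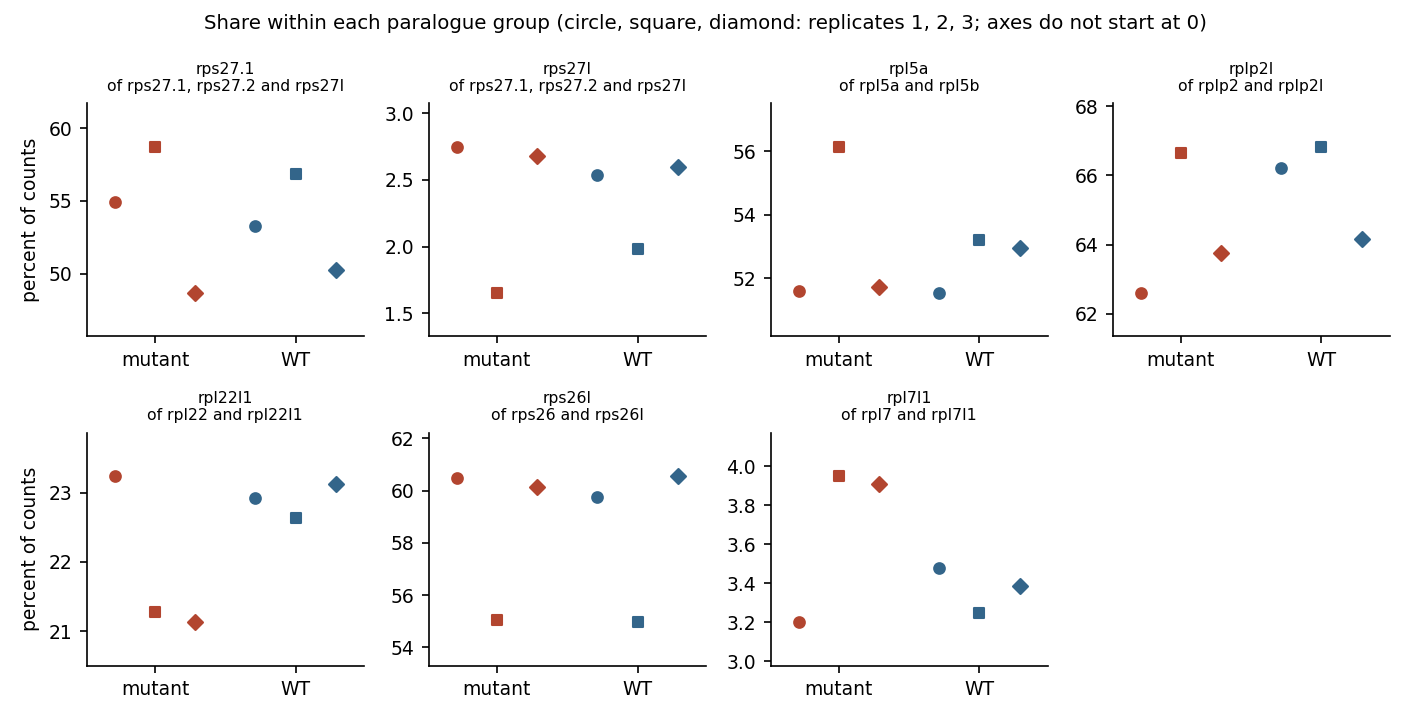
Percent of the counts of each paralogue group held by the gene named first, by library (circle, square and diamond for replicates 1, 2 and 3; the vertical axes do not start at 0). Replicate 2 stands apart in both genotypes for rps27.1, rps27l and rps26l, and no panel separates mutants from WT. For rpl5a (53.2% in WT 2, 53.0% in WT 3) and rplp2l (66.7% in mutant 2, 66.2% in WT 1) the gap is within counting error.

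A few members had far fewer counts than the rest, and some of these overlap another gene or carry a doubtful name. rpl9 had 8.45, 10.9 and 19.9 normalized counts in mutants against 17.4, 10.4 and 9.46 in WT. Its span overlaps rfc1 and CR759875.1, which had means of 329 and 11.6, where the median level of all members was 12260. rpl26 had 31.8, 43.4 and 31.7 in mutants against 41.2, 27 and 40.2 in WT, and its span overlaps atp6v0e1, which had a mean of 884. The proteins of rpl9 and rpl26 are part of every ribosome, and whether reads of these genes were assigned to their neighbours was not tested. Their intervals were the widest of all members, from −0.90 to 0.97 for rpl9 and from −0.61 to 0.58 for rpl26.

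The second gene named rpl37 (ENSDARG00000076360, chromosome 2 from 49860722 to 49871576) had 190.4, 155 and 194 normalized counts in mutants against 223, 123 and 222 in WT. A table of gene names calls it COA1, an assembly factor of mitochondria, and its span overlaps blvra. The main rpl37 gene (ENSDARG00000034291) had 11237, 14509 and 11786 in mutants against 11207, 11643 and 10389 in WT, with overlapping pools and a log2 fold change of 0.17. rps19bp1 is named for a protein that binds that of rps19 and is not itself a ribosomal protein. It had 378, 447 and 395 normalized counts in mutants against 367, 384 and 325 in WT, with a log2 fold change of 0.18 ± 0.11 (SE) and a limma adjusted p of 0.516.

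2 genes with matching names were not members. rps20 is listed as a processed transcript and had 18684.8, 19309 and 18294 normalized counts in mutants against 17508, 19550.5 and 18621 in WT. rpl30 was listed at 0 in all 6 libraries, and its span overlaps rida, which had a mean of 1067. In all, 20 members overlap another protein-coding gene and 23 a snoRNA gene, as is usual for genes whose introns carry these guides of RNA modification. The libraries were strand-specific, but whether the counting used strand is not stated in any source used here. The members lie on 25 chromosomes with at most 7 on each. Of these, 1 is on chromosome 15 with dscaml1, and 0 members are within 10 Mb of it.

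Ribosomal proteins whose names the rule does not take had coefficients above 0 in 4 of 4 cases, against 50.7% of all genes. rack1, a scaffold of signalling proteins on the small subunit, had 34202 normalized counts on average in mutants and 31527 in WT, a log2 fold change of 0.12. faua and faub, with a ubiquitin-like protein fused to a small-subunit protein, had log2 fold changes of 0.11 and 0.22. The lowest adjusted p of the 4 was 0.488 from limma, for faub.

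Genes that build ribosomes, and the ribosomal proteins of mitochondria, which the nucleus encodes for a separate ribosome, also had coefficients mostly above 0. Over all genes, 50.7% had a coefficient above 0 and 14% had an unadjusted p under 0.05. Of 56 ribosome biogenesis genes, 45 had a coefficient above 0, with a median log2 fold change of 0.09, and 0 were called (3 at an unadjusted p under 0.05). Between libraries of equal replicate number, 31, 34 and 48 of them were above 0 for replicates 1, 2 and 3. All mutant libraries lay above all WT libraries in 2 of them (3.57%), against 5.07% of all genes and 20.7% of the members. The lowest p were those of dimt1l, an rRNA methyltransferase (0.37), bysl (0.27) and eif6 (0.26), both of which act in subunit assembly, and polr1e of RNA polymerase I (0.28). dimt1l had an adjusted p of 0.271 from limma. Of 74 mitochondrial ribosomal protein genes, 64 had a coefficient above 0, with a median of 0.10, and 0 were called (4 at an unadjusted p under 0.05). By replicate number 45, 63 and 58 of them were above 0, and in 9 (12.2%) all mutant libraries lay above all WT libraries. mrpl48 (0.36), mrps18c (0.36), mrps21 (0.37) and mrpl33 (0.30) had the lowest p, with adjusted p from 0.262 to 0.346 with limma. The same fit gave replicate 2 medians of −0.17 for the biogenesis genes and 0.21 for the mitochondrial ribosomal proteins, next to −0.03 for the cytosolic ones.

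Elongation factors, initiation factor 3 genes and other genes with the pyrimidine start had medians near or below 0. The shares over all genes were again 50.7% above 0 and 14% at an unadjusted p under 0.05. Of 13 genes of elongation factors, 5 had a coefficient above 0, with a median of −0.01, and 0 were called (3 at an unadjusted p under 0.05). eef1a1a (0.53), eef1a1l2 (0.46) and eef1da (0.24) had the lowest p, and of these DESeq2 alone called eef1a1a, which had 770.1 normalized counts on average in mutants and 516 in WT. eef1a1l1, named outside the rule as the most counted of them with 115501 normalized counts on average in mutants and 121817 in WT, had −0.08. Of 13 other genes whose mammalian mRNAs start with the same pyrimidine run, 3 were above 0, with a median of −0.10 and 0 called (2 at an unadjusted p under 0.05). They included btf3, a subunit of the complex that meets new chains at the exit tunnel, at 0.27, and hnrnpa1a, an RNA-binding protein, at −0.34. Of 16 genes of initiation factor 3, 10 were above 0 with a median of 0.02, and 0 were called and 0 had an unadjusted p under 0.05.

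Genes that regulate the translation of these mRNAs or the production of ribosomes, those of the Myc network among them, were mixed. Of 23 such genes, 14 had a coefficient above 0, next to 50.7% of all genes. The median of the 23 was 0.01, with 0 called and 4 at an unadjusted p under 0.05, next to 14% of all genes. eif4ebp3l, a translation repressor of the family that mTORC1 controls, had 1744 normalized counts on average in mutants and 1067 in WT, a log2 fold change of 0.60 (adjusted p = 0.195 from limma). max (0.32) and mych (0.47), of the Myc network that drives ribosome production, were above 0, and larp1b, related to a protein that binds the pyrimidine start, was at −0.31. Of 9 genes of ribosome quality control and the response to stalled ribosomes, 5 were above 0 with a median of 0.02, and 0 were called (1 at an unadjusted p under 0.05, ascc3 at −0.31). In all 8 of these lists, counts of 0 are from limma, edgeR likewise called 0 genes, and DESeq2 called only eef1a1a. The lists share the same libraries and the same fit, and the difference between them was not tested.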

How the data were processed

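RNA-seq libraries of 3 dscaml1 mutant and 3 wild-type pools were compared. The deposited signal values are counts per gene, which the authors had scaled with a size factor for each library. The submitters' processing notes list GRCz11 as the build and TopHat2, HISAT2 and HTSeq as tools, whose roles and versions no source used here states. The mean, log2 fold changes, standard errors, p-values, adjusted p-values and test score of the authors' own comparison, also in the deposited table, were not used, and 0 sample columns had to be left out for want of a label. Reads recovered from the values by dividing by what 1 read is worth were whole in 100% of cases, to a tolerance of 0.001 reads.

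limma 3.58.1 (R 4.3.3, with a mean-variance trend) was run on log2(value + 1) of the 21302 genes whose mean was at least 5. The model held genotype and, as a batch term, membership of replicate 2, which leaves 3 residual degrees of freedom; this scale understates changes of low genes. The batch term, the members and all lists were chosen with earlier results of these data known. edgeR 4.0.16 and DESeq2 1.42.0 on the recovered reads were alternatives, as were other scalings, filters, pseudocounts, the replicate number as a block and the leaving out of each library. With 3 pools in each genotype an exact two-sided permutation test cannot give a p below 0.1, and since no clutch or collection day is named for the pools, the p-values reflect pool-to-pool spread only.

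Members were named with values where they belong to the stalk, to the complex around the smallest large-subunit RNA, to a list of core proteins or to a paralogue pair, where they encode no ribosomal protein, where they had the 5 lowest p, or where they had the 5 highest or lowest genotype or replicate 2 coefficients. Of other lists the 4 genes with the lowest p could be named. Members outside the rule are marked or were chosen after their values were seen. Libraries were paired here by replicate number, although no source used here states that equal numbers belong together. Over all genes, deviations from the genotype means correlated at 0.65, 0.86 and 0.70 between libraries of equal number. The crossed pairs were at 0.50 for mutant 1 with WT 3 and 0.35 for mutant 3 with WT 1. Deviations within a genotype are not independent, so replicate 2, which stood apart, draws replicates 1 and 3 together whatever the pairing. Over the members alone the correlations at equal number were −0.11, 0.53 and −0.04, against 0.61 and 0.46 for the same crossed pairs. Among members, only replicate 2 thus correlated best with its own number, and the pairing of replicates 1 and 3 is not established. The table of gene names held all 82 members. Figures were drawn with matplotlib 3.10.9 in Python 3.11.15. No sequences were used. Some members and other genes, counted in all totals, are not reported here by name, also where the naming rule would take them.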

Additional observations from a re-analysis of the deposited data

How the results depend on the processing

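No member was called under any alternative run. The count was 0 with the replicate number as a block (lowest adjusted p 0.238 from limma, and 47 genes called in all). It was 0 with no batch term, with pseudocounts of 0.5 and 10, and with no filter or a mean of at least 50. It was also 0 with TMM or equal-total scaling, with edgeR, with DESeq2 and with each library left out. Few genes of the whole table were called in several of these runs. There were 18 with edgeR, 20 to 23 with the other pseudocounts, filters and scalings, and 3 without WT replicate 1. The count of 0 says little of the members there. No gene at all was called with no batch term or without both replicate 2 libraries. The same held without WT replicate 2, WT replicate 3, mutant replicate 2 or mutant replicate 3. In those fits the count of 0 says nothing of the members. The lowest adjusted p of any member lay between 0.230 and 1.0 over these fits. The median log2 fold change of the members stayed above 0, from 0.03 without mutant replicate 3 to 0.08 without mutant replicate 1. Members whose coefficient took the other sign numbered 0 to 7 in these settings, and 15 of 82 without mutant replicate 3. The count of members with all mutant libraries above all WT libraries was 28 without both replicate 2 libraries (22.8% of all genes). With 1 library left out the count ranged from 17 to 37, and the share of all genes from 7.10% to 15.3%. These ranges do not run in step, as 7.10% went with 18 members, without WT replicate 1. The count was 17 among the 75 members with a mean of at least 1000, a setting chosen after seeing the data. The causes were not tested. Low counts limit what can be said of rpl9 and rpl26, which had as few as 13 and 43 reads in a library.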
